A study of Mus musculus with 19 samples.

Results

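Expanded hexanucleotide repeats in C9orf72, the most common inherited cause of amyotrophic lateral sclerosis and frontotemporal dementia, are translated into dipeptide repeat proteins. Poly(GR), a chain of alternating glycine and arginine, carries a strong positive charge, and is known from cell and animal work to bind nucleolar and ribosomal proteins and to be toxic to neurons. The 8 libraries described here compare brains that expressed poly(GR) with GFP controls from the same harvest, out of 19 libraries in the series, and were taken by their group label alone. All came from C57BL/6 mice aged 3 months that had received AAV1, an adeno-associated virus, in the cerebral ventricles as newborn pups. In 4 mice (3 female, 1 male) the virus carried GFP fused to (GR)100, and in 4 mice (2 female, 2 male) it carried GFP alone, so that both groups share the injection, the virus and GFP. The labels give no promoter for the transgene and no measure of how many cells were infected. RNA was taken from a homogenate of hippocampus and cortex, and the labels list each library as a separate mouse.

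Reads assigned to genes numbered 28376321 to 47648711 per library, and reads assigned to repeat subfamilies 7020042 to 12701931. The deposited gene tables come in 2 layouts. Controls 1, 3 and 4 and poly(GR) 1 and 4 have 2 columns, with a gene and its count. Control 2 and poly(GR) 2 and 3 have 4 columns, with a count regardless of strand and a count for each strand. In the 4-column tables the strands held 49.9% to 50.0% of reads, so the counts keep no strand. The layouts hold the same kind of count: 223 genes had at most 5 reads regardless of strand and over 100 by strand in the 4-column tables, and none of them exceeded 12 reads in any 2-column table. Xist, the RNA of the inactive X chromosome, and the Y-linked gene Ddx3y matched the sex label in all 8 libraries.

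Controls 1 and 2 stood apart from the other 6 libraries. Reads on ribosomal RNA (rRNA) made up 59.5% of repeat reads in control 1 and 49.1% in control 2, against 22.9% and 25.4% in controls 3 and 4. The poly(GR) libraries held 22.1%, 27.9%, 29.2% and 28.2%. The groups overlapped, and the 2 high libraries were both controls, both female and of different table layouts. The mean share was 39.2% ± 17.9 (SD, n = 4) in controls and 26.8% ± 3.24 (SD, n = 4) in poly(GR), a difference of -12.4 percentage points with an exact two-sided permutation p of 0.371, where 0.0286 is the smallest p that 4 against 4 libraries allow. With controls 1 and 2 left out the difference was 2.67 percentage points (exact permutation p = 0.4). Within the 2-column layout the controls held 59.5%, 22.9% and 25.4% and poly(GR) 22.1% and 28.2%. Within the 4-column layout 1 control held 49.1% and poly(GR) 27.9% and 29.2%, too few libraries for a test. The gene counts split the same way. The chi-square per degree of freedom between 2 libraries was 11.03 for controls 1 and 2 and 8.79 for controls 3 and 4, against 32.6 to 69.6 for the pairs that cross, and 9.67 to 26.6 among the poly(GR) libraries. Since both female controls have the high rRNA share and both male controls the low one, sex and rRNA share cannot be told apart within the controls, and the fit with a sex term sets 3 poly(GR) females against controls 1 and 2, and poly(GR) 4 against controls 3 and 4.

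**Figure D1:**
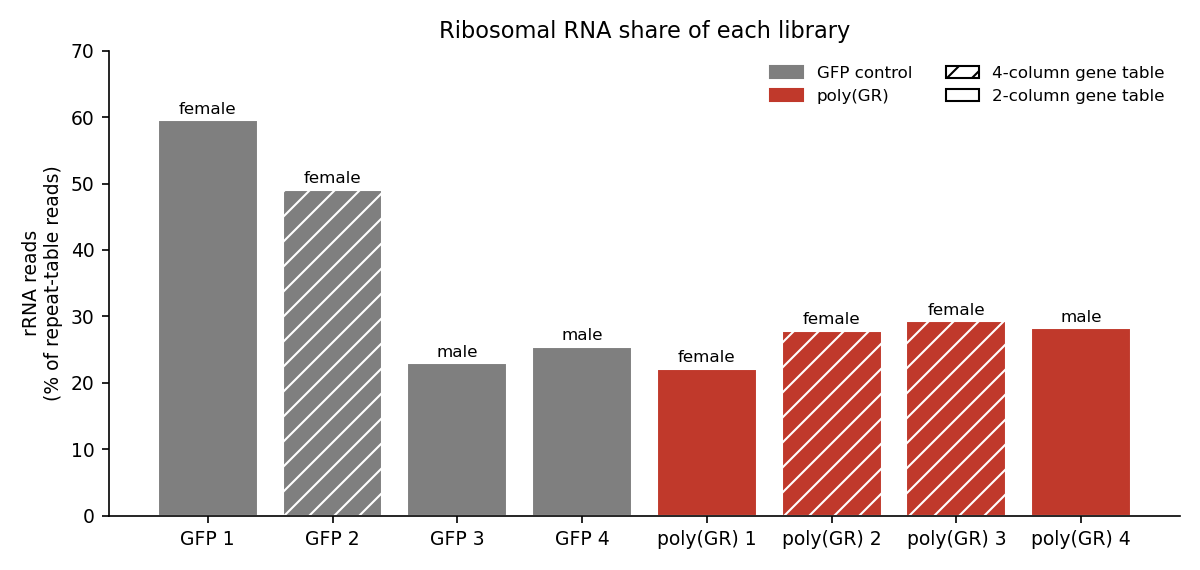
Ribosomal RNA reads as a percentage of the reads in the repeat table, 1 bar per library, with GFP controls in grey, poly(GR) in red, hatching for the 4-column gene tables and the sex written above. Controls 1 and 2 reach 59.5% and 49.1%, and the other 6 libraries lie between 22.1% and 29.2%.

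Across all genes the poly(GR) brains differed from their controls in few transcripts. Of 19367 genes tested, 29 (0.15%) passed the quasi-likelihood test of edgeR at a Benjamini-Hochberg adjusted p of 0.05, with sex as a covariate. Higher in poly(GR) were 15 (0.0775%) and lower 14 (0.0723%), while 2171 genes (11.2%) had an unadjusted p under 0.05, and DESeq2 called 152 genes (0.785%). These shares are the background for the counts over gene lists. Of the 29, 24 had all 4 poly(GR) libraries beyond all 4 controls, where 900 of all genes tested (4.65%) did. The other 5, Neat1, Zkscan2, Xist, Neurod6 and Plin4, overlapped between the groups. The median log2 fold change of all genes was 0.01. The call count changed with the libraries used: it was 0 without control 1, 18 without control 2, 114 without poly(GR) 4, and 0 with the rRNA share as a covariate. Without control 1, control 2 is the only female control, and the cause of these changes was not tested. Leaving out controls 1 and 2 and the sex term sets all 4 poly(GR) libraries against controls 3 and 4. Controls 3 and 4 are both male and poly(GR) 1 to 3 female, so sex is mixed with group in that fit. The same holds wherever values against controls 3 and 4 alone are given below. In that fit 0 genes were called by edgeR, and 914 of 19333 tested had an unadjusted p under 0.05. The direction of the 29 genes changed less between fits than the count of calls. They were chosen in these same libraries, so a sign kept in a subset is no separate support. The fits on the 5 female libraries and on the 3 male libraries each gave all 29 the sign of the fit to 8. Xist did so in males at only -0.0027. Without controls 1 and 2 and without the sex term 28 kept it, Xist being the exception. With the sex term, leaving out controls 1 and 2 repeats the male comparison, poly(GR) 4 against controls 3 and 4. The 24 genes beyond all 4 controls are necessarily beyond controls 3 and 4 as well, and none of the other 5 was. In 27 of the 29, however, the mean of controls 1 and 2 lay farther from the poly(GR) group than the mean of controls 3 and 4, and in 17 controls 1 and 2 each lay farther than both. The part of the rRNA share in these calls was not tested. In a test added after the data had been seen, the poly(GR) difference itself differed between the sexes for 34 genes (0.176%) by an interaction term in edgeR.

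**Figure D2:**
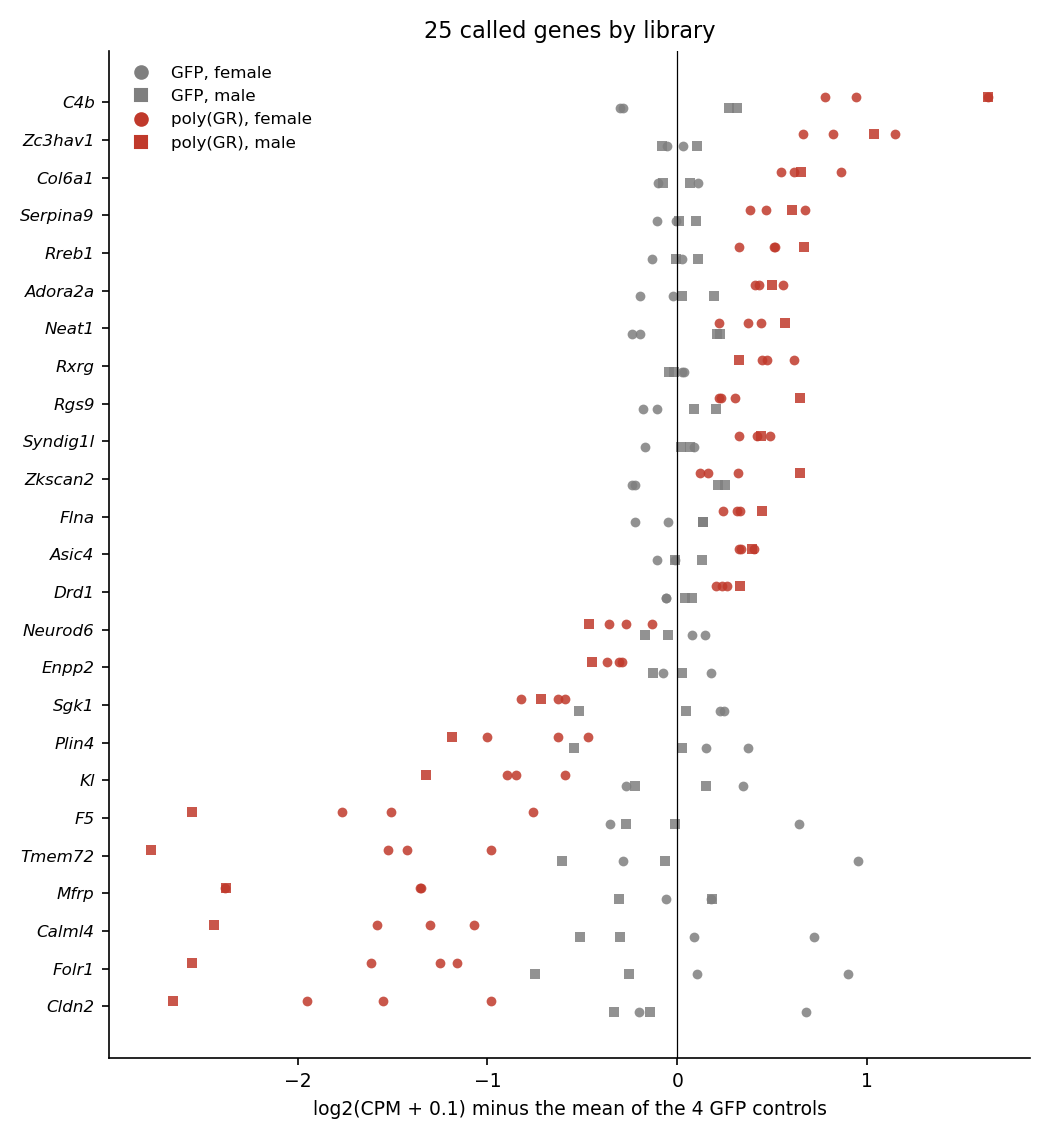
Level of the called genes in each library, as log2(CPM + 0.1) minus the mean of the 4 GFP controls, for 25 of the 29 called genes (Xist is among those not drawn), with circles for female and squares for male libraries. C4b, Zc3hav1 and Col6a1 have all red points to the right of all grey points, and the choroid plexus genes Folr1, Calml4, Cldn2, Tmem72 and F5 all red points to the left, with poly(GR) 4, the male, lowest.

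The most strongly lowered called genes were mostly those of the choroid plexus, the epithelium inside the ventricles that secretes cerebrospinal fluid and supplies it with transport proteins. Levels are given in CPM, the read count of a gene scaled to library size with TMM normalization. Folr1 encodes folate receptor alpha, which carries folate across this epithelium, and stood at 3.27, 1.84, 0.975 and 1.42 CPM in controls 1 to 4 and at 0.491, 0.660, 0.709 and 0.207 CPM in poly(GR) 1 to 4. All poly(GR) libraries lay under all controls, poly(GR) 4 lowest and control 1 highest. The log2 fold change was -2.14 (SE 0.26, edgeR adjusted p = 0.00560). Cldn2, which encodes the tight junction protein claudin-2, stood at 2.37, 1.25, 1.13 and 1.30 CPM in the controls against 0.429, 0.300, 0.682 and 0.145 CPM in poly(GR), and fell by 2.17 on the log2 scale (SE 0.32). Calml4, a calmodulin-like gene, stood at 1.91, 1.19, 0.888 and 0.753 CPM in the controls against 0.307, 0.480, 0.394 and 0.124 CPM in poly(GR), and fell by 2.14 (SE 0.28). In both genes the groups were apart, with control 1 again the highest library and poly(GR) 4 the lowest. Tmem72, a membrane protein gene, fell by 2.07 on the log2 scale (SE 0.31), and F5, which encodes coagulation factor V, by 1.87 (SE 0.31). These 5 genes averaged 1.19 to 2.80 CPM in controls, so they are read from few counts. Folr1 lies on chromosome 7 (101858331 to 101870788, GRCm38), Cldn2 on chromosome X (139800828 to 139811386) and Calml4 on chromosome 9 (62858080 to 62875921).

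The choroid plexus genes Kl and Enpp2, read at higher levels, showed smaller differences. Kl encodes klotho, a membrane protein that binds fibroblast growth factor receptors, and stood at 15.3, 9.95, 10.3 and 13.3 CPM in the controls against 6.42, 6.63, 7.95 and 4.75 CPM in poly(GR). The groups did not overlap, and Kl fell by 1.00 on the log2 scale (SE 0.16, edgeR adjusted p = 0.0250). Enpp2 encodes autotaxin, which makes lysophosphatidic acid, is used by oligodendrocytes as well, and stood at 316, 266, 255 and 284 CPM in the controls against 216, 226, 228 and 205 CPM in poly(GR). It fell by 0.39 (SE 0.06, edgeR adjusted p = 0.0351). Ttr, the transthyretin gene, was named after its values were seen. It stood at 322, 215, 104 and 155 CPM in the controls against 38.5, 108, 90.5 and 1.16 CPM in poly(GR), with a log2 fold change of -2.72 (SE 0.63) and an edgeR adjusted p of 0.135. In Ttr poly(GR) 2 lay above control 3, and poly(GR) 4 held almost none. Mfrp, a frizzled-related membrane protein gene outside the list, stood at 2.19, 1.84, 1.54 and 2.20 CPM in the controls against 0.695, 0.690, 0.289 and 0.290 CPM in poly(GR), and fell by 2.07 (SE 0.28). It shares 37.9% of its exonic bases with other genes, and the counts keep no strand.

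As a list, 7 of 24 choroid plexus markers passed as lower, where 0.0723% of all genes did, and 0 as higher. The median log2 fold change was -1.04 and 23 of the 24 were below 0, the exception being Trpm3 at 0.13. No marker was at 0 in all 8 libraries, and the summed level of the list was 471 to 777 CPM in the controls against 290 to 420 CPM in poly(GR). Enpp2 and Ttr together made up most of that sum in each library, so it says little about the markers at low CPM. The median was -0.98 in the female libraries and -1.45 in the male ones. Against controls 3 and 4 alone, with no sex term, it was -0.75 with 22 of 23 markers below 0 and 0 called. In that fit 914 of 19333 genes tested had an unadjusted p under 0.05. The ependyma, the ciliated lining of the same ventricles, showed a smaller difference: 0 of 24 genes of motile cilia passed in edgeR, 11 had an unadjusted p under 0.05, DESeq2 called 3 as lower, and the median was -0.39 with 20 below 0. The ependymal gene Fam216b, for one, stood at 0.755, 0.961, 0.780 and 0.840 CPM in the controls against 0.225, 0.450, 0.184 and 0.124 CPM in poly(GR) (edgeR adjusted p = 0.0514). In a homogenate, fewer cells of a type in the piece of tissue taken and less RNA in each cell cannot be told apart, and how much of the ventricle wall went into each piece was not measured.

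**Figure D3:**
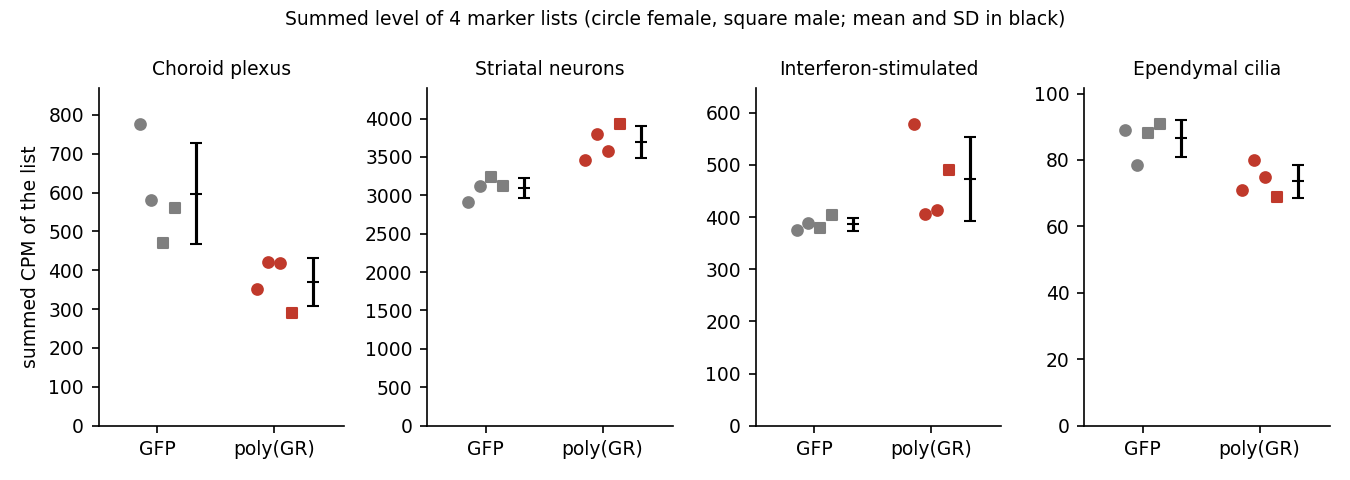
Summed level in CPM of 4 gene lists in each library, circles for female and squares for male libraries, grey for GFP controls and red for poly(GR), with the mean and SD in black and axes from 0. Choroid plexus sums are 471 to 777 in controls and 290 to 420 in poly(GR), striatal sums 2913 to 3234 and 3464 to 3933, interferon-stimulated sums 375 to 403 and 407 to 579, and ependymal sums overlap. Enpp2 and Ttr make up most of each choroid plexus sum.

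Genes of striatal medium spiny neurons, the dopamine-responsive projection neurons of the caudate and putamen, were higher in poly(GR). Adora2a, an adenosine receptor gene of the indirect pathway, stood at 56.3, 63.5, 73.7 and 65.4 CPM in the controls against 87.0, 94.8, 85.7 and 91.1 CPM in poly(GR). All 4 poly(GR) libraries lay above all controls, and it rose by 0.51 on the log2 scale (SE 0.07, edgeR adjusted p = 0.00980). Drd1, the dopamine D1 receptor gene of the direct pathway, stood at 55.1, 55.1, 59.1 and 60.7 CPM in the controls against 66.2, 67.7, 68.9 and 72.3 CPM in poly(GR), and rose by 0.29 (SE 0.05). Genes of both pathways were thus higher, by 1.22-fold for Drd1 and 1.42-fold for Adora2a, with no overlap between groups in either. Among the genes downstream of the receptors, Rgs9, which encodes a regulator that shuts off G protein signalling, stood at 87.9, 92.5, 115 and 106 CPM in the controls against 117, 123, 116 and 156 CPM in poly(GR), and rose by 0.43 (SE 0.05). Its poly(GR) libraries 1 and 3 lay within 3 CPM of control 3. Rxrg, a retinoid X receptor gene, stood at 27.2, 27.0, 26.2 and 25.7 CPM in the controls against 36.1, 40.7, 36.8 and 33.3 CPM in poly(GR), and rose by 0.44 (SE 0.06). Syndig1l rose by 0.43 (SE 0.06) and Serpina9, a serpin gene, by 0.56 (SE 0.09).

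Of 27 striatal genes 7 passed as higher, where 0.0775% of all genes did, and 27 of 27 had log2 fold changes above 0, with a median of 0.31 against 0.01 for all genes. The dopamine D2 receptor gene Drd2 stood at 0.37 (SE 0.07, edgeR adjusted p = 0.0781), the enkephalin precursor gene Penk at 0.43 (SE 0.09, adjusted p = 0.0813) and Ppp1r1b, which encodes the signalling protein DARPP-32, at 0.31 (SE 0.07, adjusted p = 0.122), and these 3 were named after their values were seen. The summed level was 2913 to 3234 CPM in the controls against 3464 to 3933 CPM in poly(GR). The median was 0.33 in female and 0.31 in male libraries, and 0.22 against controls 3 and 4 alone with no sex term, again with 27 of 27 above 0. The label names hippocampus and cortex as the tissue, yet Drd1 and Adora2a are read at over 50 CPM in every library. The part of the dissection border in this difference was not tested. Cortical and hippocampal lists had medians near that of all genes: 0.02 for upper-layer cortex, -0.03 for deep-layer cortex, 0.01 for the hippocampal CA fields and -0.03 for the dentate gyrus, with 0 genes called in each by edgeR. Unadjusted p-values under 0.05 numbered 2 of 12, 3 of 16, 2 of 16 and 3 of 12, and DESeq2 called 0, 2, 0 and 1. Among excitatory neuron genes 1 of 14 passed as lower, where 0.0723% of all genes did, the transcription factor gene Neurod6, and 2 of 14 had an unadjusted p under 0.05, where 11.2% of all genes did. It stood at 79.3, 83.3, 72.6 and 66.7 CPM in the controls against 58.6, 62.4, 68.5 and 54.4 CPM in poly(GR), where poly(GR) 3 lay above control 4, and fell by 0.36 (SE 0.06, edgeR adjusted p = 0.0333). Asic4, a gene of the acid-sensing channel family, stood at 18.6 to 21.97 CPM in the controls against 25.2 to 26.6 CPM in poly(GR) and rose by 0.38 (SE 0.06), with 18.1% of its exonic bases shared with another gene.

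Complement and antiviral genes held the strongest increases. C4b, which encodes complement component C4, a protein that tags targets for clearance and is made by glia, stood at 22.3, 22.1, 32.98 and 33.99 CPM in the controls against 84.9, 52.4, 46.8 and 84.98 CPM in poly(GR). All poly(GR) libraries lay above all controls, with poly(GR) 1 and 4 highest and controls 1 and 2 lowest. It rose 2.68-fold (log2 fold change 1.42, SE 0.15, edgeR adjusted p = 0.00560), by 1.47 on the log2 scale within females, by 1.34 within males and by 1.01 against controls 3 and 4 alone with no sex term. C4b lies on chromosome 17 (34728380 to 34743882, GRCm38) and is nearly identical to C4a, which was read at under 1.2 CPM in each library, so reads may be split between them. Zc3hav1, which encodes the zinc-finger antiviral protein ZAP that binds CpG-rich viral RNA, stood at 5.93, 5.58, 5.48 and 6.25 CPM in the controls against 12.98, 9.24, 10.3 and 12.03 CPM in poly(GR). Its lowest poly(GR) library was well above its highest control. It rose 1.96-fold (log2 fold change 0.97, SE 0.11, edgeR adjusted p = 0.00560), and by 0.94 against controls 3 and 4 alone. Zc3hav1 lies on chromosome 6 (38305286 to 38354603).

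Summed over the list, interferon-stimulated genes were highest in poly(GR) 1 and 4, the 2 poly(GR) libraries with 2-column gene tables. Of 37 such genes 1 passed as higher, Zc3hav1, where 0.0775% of all genes did. Of the 37, 15 had an unadjusted p under 0.05, where 11.2% of all genes did, and 35 had log2 fold changes above 0, with a median of 0.43. The median was 0.37 in female and 0.55 in male libraries, and 0.47 against controls 3 and 4 alone with no sex term. In sum, controls 1 to 4 held 375, 389, 379 and 403 CPM and poly(GR) 1 to 4 held 579, 407, 414 and 490 CPM, so poly(GR) 2 and 3 were close to the highest control. Oasl2, an oligoadenylate synthetase-like gene, shows the unevenness: 4.42, 5.64, 4.05 and 5.33 CPM in the controls against 22.8, 7.05, 7.06 and 15.2 CPM in poly(GR), with an edgeR adjusted p of 0.134. Ifi27, an interferon-induced mitochondrial protein gene, stood at 30.1, 31.2, 28.3 and 26.6 CPM in the controls against 68.2, 41.0, 36.6 and 44.4 CPM in poly(GR) (adjusted p = 0.134). Both were named after their values were seen. Trim25, a ubiquitin ligase gene of the RIG-I pathway, stood at 6.99 to 8.16 CPM in the controls against 9.45 to 13.6 CPM in poly(GR), apart but with an adjusted p of 0.102, and Oas1a, which senses double-stranded RNA, at 0.477 to 0.753 and 0.997 to 1.33 CPM (adjusted p = 0.122). Within the 2-column tables the log2 fold changes of Zc3hav1, Trim25 and Oas1a were 1.08, 0.64 and 1.34. Within the 4-column tables, which hold 1 control, they were 0.81, 0.49 and 0.44. The part of the layout in these levels was not tested.

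Genes of MHC class I presentation overlapped in sum, at 730, 701, 801 and 748 CPM in the controls against 900.4, 827, 733 and 799 CPM in poly(GR), highest in poly(GR) 1 and 2. Of 16 such genes 0 passed in edgeR. An unadjusted p under 0.05 was found for 10, where 11.2% of all genes had one, and DESeq2 called 3 as higher, where it called 0.785% of all genes in either direction. The median was 0.35, and 0.36 against controls 3 and 4 alone with no sex term. H2-D1, a class I heavy chain gene, stood at 39.7, 43.1, 40.2 and 48.9 CPM in the controls against 73.8, 58.0, 48.7 and 66.7 CPM in poly(GR), where poly(GR) 3 lay just under control 4 (edgeR adjusted p = 0.0804). Tap1, a peptide transporter gene, stood at 2.81, 3.58, 3.36 and 4.17 CPM in the controls against 6.75, 4.38, 4.88 and 5.85 CPM in poly(GR) (adjusted p = 0.122). In the list of genes that sense or edit double-stranded RNA, 1 of 23 passed as higher, Zc3hav1 again, where 0.0775% of all genes did. In that list 6 had an unadjusted p under 0.05, and the median was 0.06. The editing enzyme gene Adar stood at 0.01 (SE 0.05, adjusted p = 0.941), the helicase gene Dhx9 at -0.01 (SE 0.06, adjusted p = 0.975), the kinase gene Eif2ak2 at 0.32 (SE 0.14, adjusted p = 0.418) and the sensor gene Ifih1 at 0.19 (SE 0.14, adjusted p = 0.661).

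Glial markers differed by small amounts. Of 20 microglial genes 0 passed in edgeR, 9 had an unadjusted p under 0.05, where 11.2% of all genes did, and DESeq2 called 0. Their median was 0.14 with 18 above 0, and 0.13 against controls 3 and 4 alone with no sex term. Trem2, a microglial lipid receptor gene, stood at 16.1, 16.6, 16.3 and 16.2 CPM in the controls against 22.96, 20.2, 18.3 and 19.2 CPM in poly(GR) (edgeR adjusted p = 0.198). Disease-associated microglial genes had 0 of 22 passing in edgeR, 10 with an unadjusted p under 0.05, 3 called as higher by DESeq2, where it called 0.785% of all genes in either direction, and a median of 0.21, which was 0.09 against controls 3 and 4 alone with no sex term. Clec7a, a receptor gene of that state, stood at 0.396, 0.494, 0.498 and 0.521 CPM in the controls against 1.14, 0.630, 0.551 and 1.35 CPM in poly(GR) (adjusted p = 0.208), again highest in poly(GR) 1 and 4. Gfap, the astrocyte filament gene, stood at 192, 168, 237 and 216 CPM in the controls against 215, 203, 191 and 258 CPM in poly(GR), overlapping (log2 fold change 0.18, SE 0.06, adjusted p = 0.326). The 18 astrocyte markers had a median of 0.13 with 14 above 0, and of -0.03 with 12 below 0 against controls 3 and 4 alone with no sex term. In the fit to 8 libraries 0 of them passed in edgeR and 8 had an unadjusted p under 0.05. DESeq2 called 2 as higher, where it called 0.785% of all genes in either direction. Aif1, which encodes the microglial protein IBA1, stood at 0.10 (SE 0.11, adjusted p = 0.782). Of 20 complement genes 1 passed as higher, C4b, where 0.0775% of all genes did. An unadjusted p under 0.05 was found for 9, where 11.2% of all genes had one. The summed level of that list was 217 to 235 CPM in the controls against 251 to 338 CPM in poly(GR). Within these sums C4b averaged 27.8 CPM in the controls and 67.3 CPM in poly(GR).

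**Figure D4:**
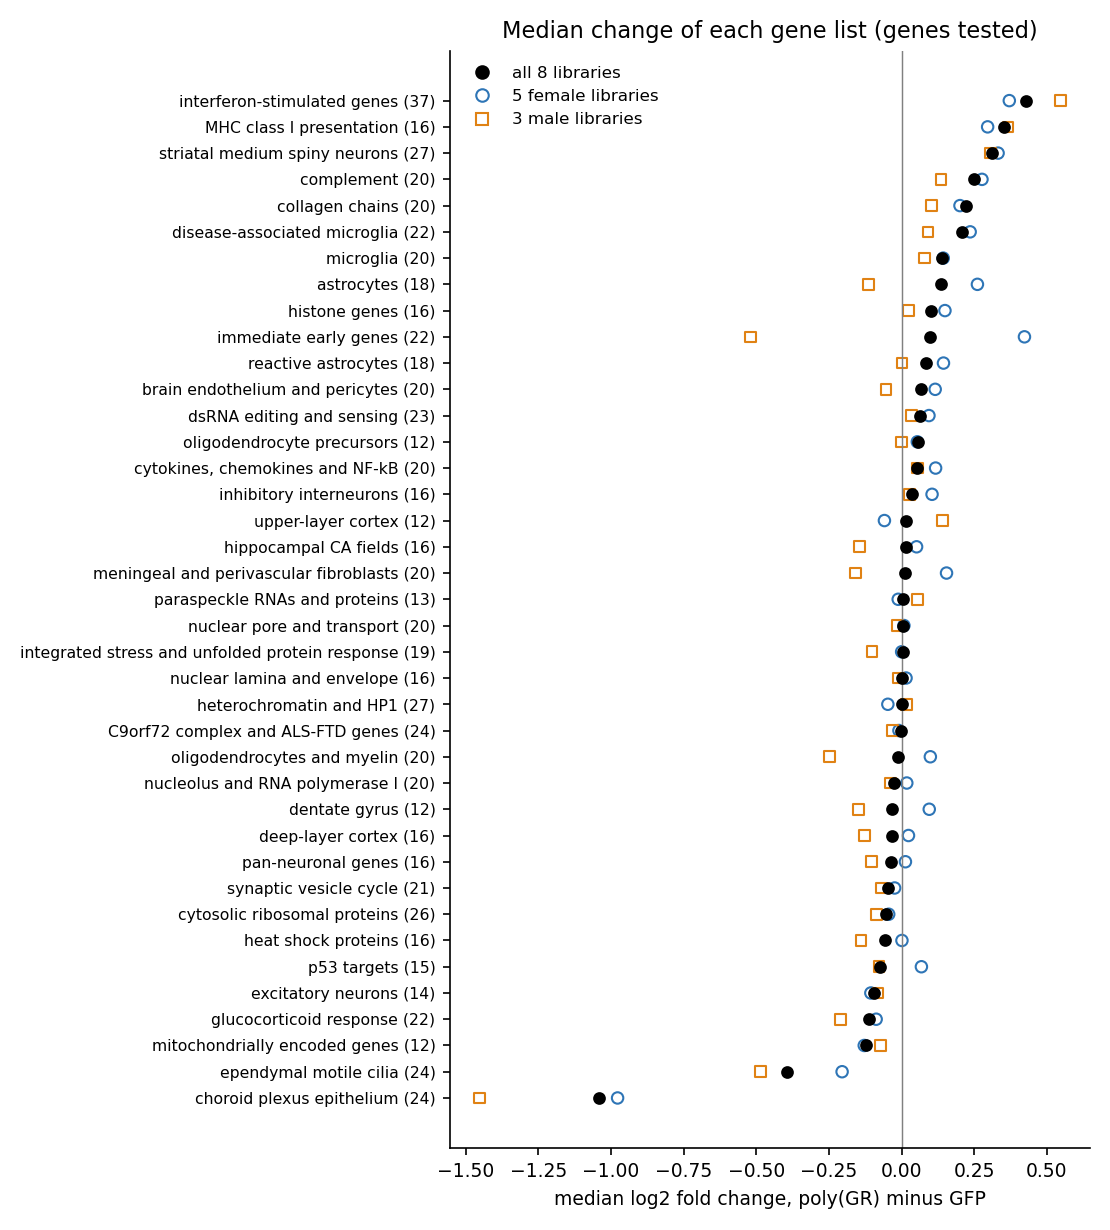
Median log2 fold change of each of 39 gene lists, with the number of genes tested in parentheses, from all 8 libraries (black), the 5 female libraries (blue circles) and the 3 male libraries (orange squares). The choroid plexus list lies lowest in all 3, interferon-stimulated, MHC class I and striatal lists highest in the fit to 8 libraries, and immediate early genes lie at 0.42 in females and -0.52 in males.

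Matrix and cytoskeleton genes were also among the called increases. Col6a1, which encodes a chain of collagen VI, made by fibroblasts and perivascular cells, stood at 34.6, 40.004, 38.8 and 35.2 CPM in the controls against 56.8, 54.2, 67.5 and 58.3 CPM in poly(GR). The groups were well apart, at 0.67 on the log2 scale within females, 0.65 within males and 0.68 against controls 3 and 4 alone, and the gene rose 1.59-fold over 8 libraries (log2 fold change 0.67, SE 0.08, edgeR adjusted p = 0.00560). Its partner chain gene Col6a2 stood at 10.5, 11.9, 13.1 and 12.6 CPM in the controls against 21.1, 15.5, 22.2 and 16.8 CPM in poly(GR), also apart, with an adjusted p of 0.0695. Of 20 collagen chains 1 passed as higher, where 0.0775% of all genes did, and 11 had an unadjusted p under 0.05, where 11.2% of all genes did. The median was 0.22, with 0.20 in females, 0.10 in males, and 0.03 with 12 of 20 above 0 against controls 3 and 4 alone with no sex term. Of 20 fibroblast markers 1 passed as higher, the same Col6a1, where 0.0775% of all genes did. Of these markers 6 had an unadjusted p under 0.05, and the median was 0.01. Flna, which encodes the actin crosslinker filamin A, stood at 44.6, 50.3, 57.0 and 57.0 CPM in the controls against 64.6, 61.4, 65.4 and 70.8 CPM in poly(GR), and rose by 0.38 (SE 0.06, adjusted p = 0.0177). Rreb1, a zinc-finger transcription factor gene of RAS signalling, stood at 39.1, 35.0, 38.2 and 41.4 CPM in the controls against 54.7, 48.0, 54.9 and 61.0 CPM in poly(GR), and rose by 0.55 (SE 0.07, adjusted p = 0.00560). In all of these called genes no poly(GR) library reached down to a control.

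Genes that respond to glucocorticoids included 2 called genes, both lower in poly(GR). The glucocorticoid receptor is a nuclear receptor that, once corticosterone binds it, attaches as a dimer to paired copies of the hexamer AGAACA facing each other 3 bases apart. Sgk1, a kinase gene it induces, and Plin4, which encodes a lipid droplet coat protein, were the called genes of this list, and promoter windows (250 bases before to 50 after the annotated start, RefSeq, GRCm38.p6) are shown because Sgk1 holds such a pair and Plin4 does not. RefSeq gives 6 windows for Sgk1, of which 3 hold the hexamer AGAACA on either strand, and 1 for Plin4. Capitals mark AGAACA or its reverse complement.
Sgk1, chr10:21993640-21993939, plus strand: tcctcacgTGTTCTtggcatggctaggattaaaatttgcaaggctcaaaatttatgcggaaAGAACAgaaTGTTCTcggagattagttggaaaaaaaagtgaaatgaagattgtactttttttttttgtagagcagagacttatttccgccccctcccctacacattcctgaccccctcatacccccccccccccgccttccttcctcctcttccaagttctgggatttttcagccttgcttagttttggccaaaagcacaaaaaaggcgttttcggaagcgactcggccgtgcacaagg
Plin4, chr17:56109733-56110032, minus strand: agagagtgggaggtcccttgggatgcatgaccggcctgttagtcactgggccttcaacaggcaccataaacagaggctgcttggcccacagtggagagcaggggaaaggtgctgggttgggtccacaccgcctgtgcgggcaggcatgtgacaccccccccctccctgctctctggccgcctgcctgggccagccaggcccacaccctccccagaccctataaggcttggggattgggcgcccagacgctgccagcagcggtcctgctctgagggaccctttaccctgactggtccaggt
The Sgk1 window holds the hexamer 3 times, and 2 of these copies form a pair with 3 bases between them, a spacing that was searched for after the window had been seen. Among all 32851 RefSeq windows, 18.97% hold the hexamer on either strand and 3 hold such a pair. The interferon response core GAAANNGAA, searched on both strands, is in 1 other Sgk1 window, in neither of these and in 8.56% of all windows. These are letter matches, and which start site was used cannot be read from gene counts.

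Sgk1 stood at 114, 112, 66.9 and 98.7 CPM in the controls against 63.3, 54.0, 61.9 and 58.2 CPM in poly(GR). Control 3 lay within 4 CPM of the highest poly(GR) library, and the other 3 controls were well above. The gene fell by 0.77 on the log2 scale (SE 0.11, edgeR adjusted p = 0.0177), by 0.91 within females, by 0.51 within males and by 0.47 against controls 3 and 4 alone. Plin4 stood at 4.35, 3.71, 3.40 and 2.26 CPM in the controls against 2.13, 1.62, 2.39 and 1.41 CPM in poly(GR), where poly(GR) 3 lay above control 4, and fell by 0.98 (SE 0.17, adjusted p = 0.0479). Nfkbia, which encodes an inhibitor of NF-kB and responds to glucocorticoids, stood at 24.3, 22.9, 17.7 and 23.02 CPM in the controls against 17.4, 15.2, 16.7 and 15.1 CPM in poly(GR), with an adjusted p of 0.0514. Of 22 genes of the list 2 passed as lower and 0 as higher, where 0.0723% of all genes passed as lower. In 10 of the 22 the unadjusted p lay under 0.05, where it did so in 11.2% of all genes. The median was -0.11 with 17 below 0, and -0.06 with 14 below 0 against controls 3 and 4 alone with no sex term. Fkbp5, a chaperone gene much used as a readout of the receptor, stood at 40.9 to 48.3 CPM in the controls against 39.4 to 41.8 CPM in poly(GR) (log2 fold change -0.12, SE 0.06, adjusted p = 0.492), and was named after its values were seen.

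The remaining called genes included long noncoding RNAs. Neat1, the RNA that scaffolds nuclear paraspeckles, stood at 55.7, 54.1, 74.5 and 73.9 CPM in the controls against 86.7, 82.6, 74.4 and 94.8 CPM in poly(GR). Poly(GR) 3 lay between the male controls, while all female poly(GR) libraries lay above controls 1 and 2. It rose by 0.49 on the log2 scale (SE 0.06, edgeR adjusted p = 0.00911), by 0.57 within females, by 0.35 within males and by 0.19 against controls 3 and 4 alone. The protein genes of the paraspeckle list were not called: 1 of 13 genes passed as higher, Neat1, where 0.0775% of all genes did. In that list 3 had an unadjusted p under 0.05, where 11.2% of all genes did, and the median was 0.00. Zkscan2, a zinc-finger gene, stood at 24.9, 25.1, 34.0 and 34.9 CPM in the controls against 31.9, 32.8, 36.7 and 46.0 CPM in poly(GR), so that the groups overlapped and the difference lies within each sex, and rose by 0.43 (SE 0.06). Xist can be compared in the 5 female libraries, at 924 and 931 CPM in controls 1 and 2 and 553, 523 and 591 CPM in poly(GR) 1 to 3. It fell by 0.65 (SE 0.09, adjusted p = 0.0149), a call that rests on the female libraries and so on the 2 controls with a high rRNA share. Xist shares 12.6% of its exonic bases with other genes, among them its antisense partner Tsix. The 2 called genes without a gene-type symbol, Gm19439 and 1500015O10Rik, were lower, at -0.86 (SE 0.10) and -1.29 (SE 0.21).

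Of the lists tied to poly(GR) and to the nucleus described next, none held a gene called by edgeR. Over all genes edgeR called 0.15% and DESeq2 0.785%, and 11.2% had an unadjusted p under 0.05 in edgeR. At such shares of calls, lists this short hold few called genes or none. Among 27 heterochromatin genes, including those of HP1, 0 passed in edgeR or DESeq2, 2 had an unadjusted p under 0.05 and the median was 0.00. Cbx5, which encodes HP1α, stood at 296, 281, 265 and 287 CPM in the controls against 256, 256, 277 and 281 CPM in poly(GR), overlapping (log2 fold change -0.08, SE 0.06, edgeR adjusted p = 0.662). Cbx1 stood at -0.06 (SE 0.05, adjusted p = 0.737) and Cbx3 at -0.10 (SE 0.07, adjusted p = 0.654). Of 16 nuclear lamina genes 0 passed in edgeR, 1 had an unadjusted p under 0.05 and DESeq2 called 1 as higher, while Lmna, Lmnb1 and Lbr stood at -0.01 (SE 0.06), -0.01 (SE 0.08) and 0.06 (SE 0.10). The 20 nuclear pore genes and the 20 nucleolar genes had medians of 0.00 and -0.03, with 0 called in each by edgeR and DESeq2 and 4 and 2 genes at an unadjusted p under 0.05. Among 24 genes of the C9orf72 complex and of inherited ALS and frontotemporal dementia 0 passed in either tool, 3 had an unadjusted p under 0.05, and C9orf72 itself stood at 29.1, 28.5, 25.6 and 29.3 CPM in the controls against 26.1, 26.2, 24.9 and 27.8 CPM in poly(GR) (log2 fold change -0.10, SE 0.06, edgeR adjusted p = 0.613). The 26 cytosolic ribosomal protein genes had a median of -0.05 with 24 below 0 and 0 called in either tool, 3 having an unadjusted p under 0.05. Against controls 3 and 4 alone with no sex term their median was 0.04 with 20 above 0. Of 16 histone genes tested 0 passed in edgeR, 3 had an unadjusted p under 0.05, DESeq2 called 1 as higher, and the median was 0.10 with 12 above 0. The linker histone gene Hist1h1c stood at 16.3, 15.5, 21.04 and 19.8 CPM in the controls against 34.9, 29.2, 18.4 and 30.3 CPM in poly(GR), where poly(GR) 3 lay below control 3 (log2 fold change 0.71, SE 0.15, edgeR adjusted p = 0.113), and was named after its values were seen. The 12 genes of the mitochondrial genome had a median of -0.12 with 11 below 0, 0 called in either tool and 4 with an unadjusted p under 0.05, and Cdkn1a, a p53 target, stood at -0.07 (SE 0.09, adjusted p = 0.811).

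Repeat RNA was compared against the scaled gene reads of the same library, which lets a general rise or fall of repeat reads appear. Of 974 subfamilies 0 (0%) passed in edgeR or in DESeq2, and 19 had an unadjusted p under 0.05 in edgeR and 11 in DESeq2. The rRNA entries SSU-rRNA_Hsa and LSU-rRNA_Hsa, named after human consensus sequences, followed the split of the controls. SSU-rRNA_Hsa stood at 207610, 133840, 33639 and 40557 CPM in the controls against 34815, 45598, 48661 and 52461 CPM in poly(GR), so the poly(GR) libraries lay near the lower pair of controls (log2 fold change -1.07, SE 0.32, adjusted p = 0.999). Young LINE-1 subfamilies did likewise. L1Md_T stood at 1181, 1042, 484 and 617 CPM in the controls against 488, 583, 520 and 775 CPM in poly(GR), with the 2 high values again controls 1 and 2 (log2 fold change -0.49, SE 0.20). L1Md_F2 stood at 3842, 3196, 1924 and 2355 CPM in the controls against 1909, 2097, 1886 and 2787 CPM in poly(GR) (-0.39, SE 0.17), while L1Md_A stood at -0.02 (SE 0.09).

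RLTR18-int, an endogenous retrovirus of the ERVK family named after its values were seen, had the smallest unadjusted p of the subfamilies in edgeR. It stood at 473, 551, 683 and 723 CPM in the controls against 804, 648, 677 and 849 CPM in poly(GR), overlapping (log2 fold change 0.40, SE 0.10, edgeR adjusted p = 0.884). The retroviral IAPEz-int, another ERVK element, stood at -0.00 (SE 0.10), the SINE B2_Mm2 at -0.00 (SE 0.10) and the SINE B1_Mm at -0.02 (SE 0.09). GSAT_MM, the pericentromeric major satellite, was read at under 0.6 CPM in each library, at 0.216, 0.286, 0.260 and 0.347 CPM in the controls against 0.491, 0.600, 0.289 and 0.519 CPM in poly(GR) (log2 fold change 0.82, SE 0.43, adjusted p = 0.999), so its level is set by few reads. Class totals in CPM of gene reads did not pass in 13 exact permutation tests, where the smallest p was 0.0857 for srpRNA (adjusted p = 0.65). LINE elements averaged 36031 ± 2973 CPM (SD, n = 4) in controls and 34078 ± 3459 CPM (SD, n = 4) in poly(GR) (exact permutation p = 0.429), LTR elements 33662 ± 1402 and 33137 ± 3379 CPM, and satellites 2711 ± 100.2 and 2604 ± 127 CPM. As a percentage of the repeat reads other than rRNA, LTR elements were at 20.40% to 20.69% in controls and 20.72% to 20.86% in poly(GR), and snRNA at 0.135% to 0.144% and 0.126% to 0.131%. Groups were apart in both, with an exact permutation p of 0.0286, the smallest possible, and an adjusted p of 0.171 over 12 classes. Without poly(GR) 4, which compares the 3 poly(GR) females with controls 1 and 2, 18 subfamilies were called, 17 lower and 1 higher, with SSU-rRNA_Hsa at -1.99 (SE 0.12). The number with an unadjusted p under 0.05 was then 219 and the median log2 fold change of all subfamilies -0.16, against -0.02 with 8 libraries. Without controls 1 and 2 the sex term leaves poly(GR) 4 alone against controls 3 and 4. The median log2 fold change of all subfamilies was then 0.23, a value that rests on 1 poly(GR) library.

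**Figure D5:**
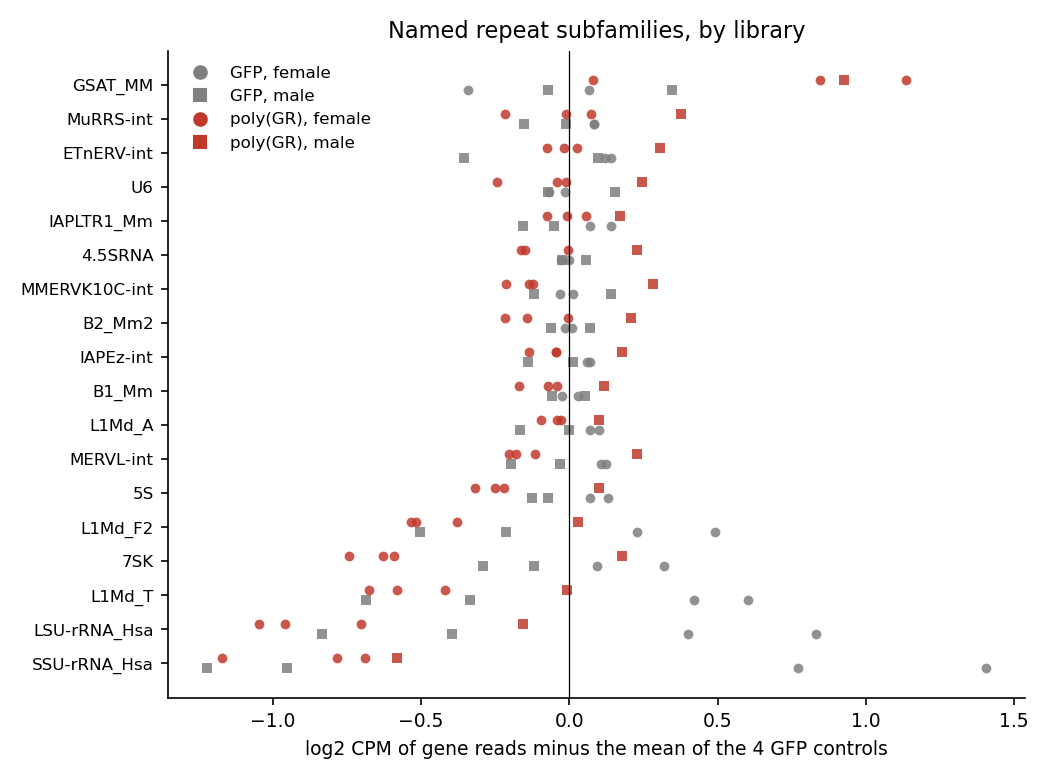
Level of 18 named repeat subfamilies in each library, as log2 CPM of gene reads minus the mean of the 4 GFP controls, circles for female and squares for male libraries, grey for GFP controls and red for poly(GR). The rRNA entries and L1Md_T and L1Md_F2 spread mainly between the female controls on the right and the other libraries, and most other subfamilies overlap between groups.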

How the data were processed

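Gene and repeat tables of the 8 libraries were used. The deposited values are whole-number counts of reads per gene and per repeat subfamily, which the authors did not normalize. Per the labels' protocols, a stranded kit turned total RNA into paired-end libraries, although another label says polyA RNA. The submitters' processing notes list mm10 and mm9 as builds, with no role for either, and name the tools STAR 2.5.2b and Trimmomatic 0.36. The repeat counter is not given in the sources used here, nor is the annotation release. The column regardless of strand was taken from the 4-column tables, and lines with no gene name were dropped before sizes and tests. In the 4-column tables reads on no gene were 6.57% to 8.73% of reads and ambiguous reads 5.91% to 8.56%. GENCODE M21 (GRCm38) gave symbols and coordinates and lists 53706 of the 53801 gene IDs.

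The gene test was that of edgeR 4.0.16 under R 4.3.3 (TMM, filterByExpr on the design, quasi-likelihood test, sex as a covariate, Benjamini-Hochberg at 0.05). Repeats were tested alike, with TMM-scaled gene reads as library size. Class totals and rRNA shares were compared by exact two-sided permutation tests. DESeq2 1.42.0, other filters and covariates, subsets of libraries and leaving out each library were the alternatives. Replicate numbers follow accession order and pair nothing. Named genes were every called gene with a gene-type symbol, up to 4 members of each list by smallest adjusted p, and a set of HP1, lamin, dsRNA, glial and sex genes. The values of 1 called gene are not reported here. The groups, lists and rules were chosen with earlier results of these data known. Tested on simulated counts, the gene fit recovered 58% of 100 genes changed 1.5-fold and 77% of 100 changed 2-fold, with 7 wrong of 142 calls over 19017 genes. The repeat fit recovered 80% and 90% of 20 subfamilies each. The simulated counts held no split among the controls and no difference in rRNA share, so these rates need not hold for the real libraries.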

Additional observations from a re-analysis of the deposited data

Results flagged for a closer look

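In 204 groups of 4 libraries, the gap of the highest or lowest library to its neighbour was compared with the range of the group, and 6 exceeded Dixon's critical value for 4, where chance gives about 1 in 20. Cldn2 in the GFP controls had a gap of 0.859 of the range, control 1 lying above the rest. The mitochondrial share of gene reads in the controls (gap 0.832) was low in control 3, at 4.18% against 4.66% to 4.76%. The LTR class total in the controls (0.859) was also low in control 3, at 31578 CPM against 34092 to 34503. In the poly(GR) group poly(GR) 4 was high for the scRNA class total (0.931), at 642 CPM against 468 to 480.3, and for the RNA class total (0.876), at 83.2 CPM against 43.9 to 48.8. That class total is made of 7SK, so 7SK has the same gap (0.876).

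Summed over a list, 5 lists moved in opposite directions in the sexes in every library, and these sums were not tested. Gene by gene, an interaction term in edgeR, added after the data had been seen, was called for 34 of all 19367 genes (0.176%) and for 9, 0, 0, 0 and 1 genes of the lists named next, in their order, with 19, 6, 9, 4 and 2 at an unadjusted p under 0.05. It rests on 1 male poly(GR) library and on female controls with a high rRNA share, which cannot be told apart from sex. The difference, female minus male log2 ratio of poly(GR) over GFP, was 0.986 for immediate early genes, 0.729 for meningeal and perivascular fibroblast markers, 0.304 for astrocyte markers, 0.281 for disease-associated microglial genes and -0.355 for paraspeckle RNAs and proteins. For immediate early genes, whose transcripts follow neuronal activity within minutes, the female ratio was 0.43 and the male ratio -0.56. The interaction was called for 9 of the 22 genes, and 1866 of all genes had an unadjusted p under 0.05. Arc, chosen after its values were seen, stood at 114, 113, 171 and 270 CPM in the controls against 249, 312, 176 and 70.2 CPM in poly(GR).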

How the results depend on the processing

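The direction of the 29 called genes, chosen in these same libraries, was the same under most settings, and the count of calls was not. The 29 were 32 with DESeq2 size factors in edgeR or a filter by group, 27 with table layout as a covariate and 35 within the 2-column tables. DESeq2 called 152, edgeR without a filter 522, without the sex term 8, with the rRNA share as a covariate 0, 93 within the 4-column layout (1 control, assumed to vary like poly(GR)), within females 100, with all 19 libraries in one fit 1, and for a change beyond 1.2-fold 6. Among settings chosen after seeing the data, the count was 2 without controls 1 and 2, 0 without them and without the sex term, 52 within males (1 poly(GR) library) and 0 with 19 libraries less controls 1 and 2. Where edgeR called 0 genes, 1473 (rRNA share), 1382 (without control 1), 914 and 612 had an unadjusted p under 0.05. Leaving out each library gave 0 to 114 genes and 0 to 18 repeat subfamilies, and a difference in rRNA share of -17.8 to -5.63 percentage points. Named in turn, the count was 0 without control 1, 18 without control 2 and 114 without poly(GR) 4. Without controls 1 and 2 the rRNA difference was 2.67. Xist reversed to a log2 fold change of 0.0020 without controls 1 and 2, 8.19 without them and without the sex term, where sexes are unequal, and 0.40 with 19 libraries less those controls. The cause of the other changes was not tested. No paired analysis was possible because the replicate numbers come from accession order and the labels give no pairing. At 28376321 to 47648711 gene reads per library, each CPM stands for under 50 reads.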
